A study of Homo sapiens with 6 samples.

Results

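The 8 human ephrin ligand genes were examined for Myc binding in MDA-MB-231 cells with and without TXNIP. They are 5 ephrin-A genes, EFNA1 to EFNA5, and 3 ephrin-B genes, EFNB1 to EFNB3, of 19785 protein-coding genes in the annotation. The family was chosen by a measured value, a strong Myc peak near EFNA5 called in the TXNIP-knockout cells and not in the parental cells. Parental against knockout calls at these genes are therefore given as a description, with no test. A peak counted for a gene if its summit was no more than 5 kb from the transcription start (TSS) of any protein-coding transcript in the basic annotation set.

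Ephrins are cell-surface ligands for the Eph receptors, the largest family of receptor tyrosine kinases. Ephrin-A proteins are held in the membrane by a glycosylphosphatidylinositol anchor and ephrin-B proteins by a transmembrane segment, so both act between touching cells. Binding can signal into the receptor-bearing cell and back into the ephrin-bearing cell, which guides axons, vessels and tissue boundaries and is studied in the migration of tumour cells.

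MDA-MB-231 is a human cell line from a triple-negative breast cancer, that is, one without oestrogen receptor, progesterone receptor or HER2 amplification. The parental line was compared with TKO, the same line after CRISPR/Cas9 deletion of TXNIP, the gene of thioredoxin interacting protein. Both were grown in the same serum-containing medium with no other treatment. TKO clones were isolated from single cells, so the effects of the deletion and of clonal descent cannot be told apart in these samples. Each line had 2 libraries of chromatin immunoprecipitated with a Myc antibody (D3N8F) and 1 input library, which was not analysed here. The study calls the replicates biological. Its labels do not say whether they were separate cultures, and spreads between replicates are those of these libraries. Peak lists carry no expression value, so neither the loss of TXNIP nor the identity of the cells could be checked from them.

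The parental lists held 3720 and 5719 peaks and the TKO lists 27213 and 25887, from recovered depths of 26.4 and 22.2 M reads in parental and 19.9 and 13.0 M reads in TKO replicates 1 and 2. The longer lists thus came from the shallower libraries. With 2 libraries against 2, an exact permutation test cannot give a p below 0.333. Fold is the enrichment of summit reads over local background as deposited, and a percentile is the rank of that fold within a peak's own list, with 100 the strongest. Parental and TKO folds were not divided by each other.

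The sequences around the summits of 4 ephrin sites are shown first, because they hold the Myc recognition sequence, the canonical E-box CACGTG, or belong to the strongest sites within 5 kb of an ephrin TSS. Each is the reference sequence of GRCh37 (hg19) within 100 bp of a TKO summit, read 5′ to 3′ on the strand of the gene, with bases of untranslated regions left out and CACGTG in capitals. The first is the strongest ephrin site, upstream of EFNA5 at chr5:107008503-107008703 on the minus strand. The next, at chr5:107006189-107006314 on the minus strand, starts at the first base of the EFNA5 start codon and ends 1 base beyond the coding exon. The other 2 lie on the plus strand, upstream of EFNA1 at chr1:155098617-155098817 and upstream of EFNB1 at chrX:68047694-68047894.
EFNA5 upstream site: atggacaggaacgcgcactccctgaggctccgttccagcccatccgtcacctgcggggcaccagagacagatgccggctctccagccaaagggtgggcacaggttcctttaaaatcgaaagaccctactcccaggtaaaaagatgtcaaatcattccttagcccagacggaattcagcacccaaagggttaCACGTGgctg
EFNA5 coding site: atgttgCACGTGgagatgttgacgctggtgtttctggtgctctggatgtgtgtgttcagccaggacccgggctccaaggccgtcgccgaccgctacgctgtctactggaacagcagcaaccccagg
EFNA1 upstream site: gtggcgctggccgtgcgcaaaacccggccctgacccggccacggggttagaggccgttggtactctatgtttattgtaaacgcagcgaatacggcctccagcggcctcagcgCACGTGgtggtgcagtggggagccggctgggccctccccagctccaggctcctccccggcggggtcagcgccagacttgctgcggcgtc
EFNB1 upstream site: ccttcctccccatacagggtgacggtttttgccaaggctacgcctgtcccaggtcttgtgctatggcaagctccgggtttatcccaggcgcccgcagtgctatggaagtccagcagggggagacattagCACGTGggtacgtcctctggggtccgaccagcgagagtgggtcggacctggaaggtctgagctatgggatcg
In the EFNA5 coding site the E-box occupies coding bases 7 to 12 (chr5:107006303-107006308), in the first coding exon.

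No ephrin gene had a Myc peak within 5 kb of a TSS in either parental library, and 5 of 8 had one in each TKO library. The mean was 0 ± 0 (SD, n = 2) genes in parental cells and 5 ± 0 (SD, n = 2) in TKO. Of all protein-coding genes, 13.9% had such a peak in parental replicate 1 and 15.5% in parental replicate 2. The corresponding shares were 54.6% in TKO replicate 1 and 55.5% in TKO replicate 2, against 62.5% of ephrin genes in each. In both TKO libraries and in no parental library, peaks were called at 4 ephrin genes, EFNA1, EFNA4, EFNA5 and EFNB1. That is 50% of the family, beside 32.5% of all genes, and nothing was read from the difference since the same contrast chose the family. EFNB2 had a peak in TKO replicate 1 alone and EFNA3 in TKO replicate 2 alone. EFNA2 and EFNB3 had none within 5 kb in any library.

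**Figure D1:**
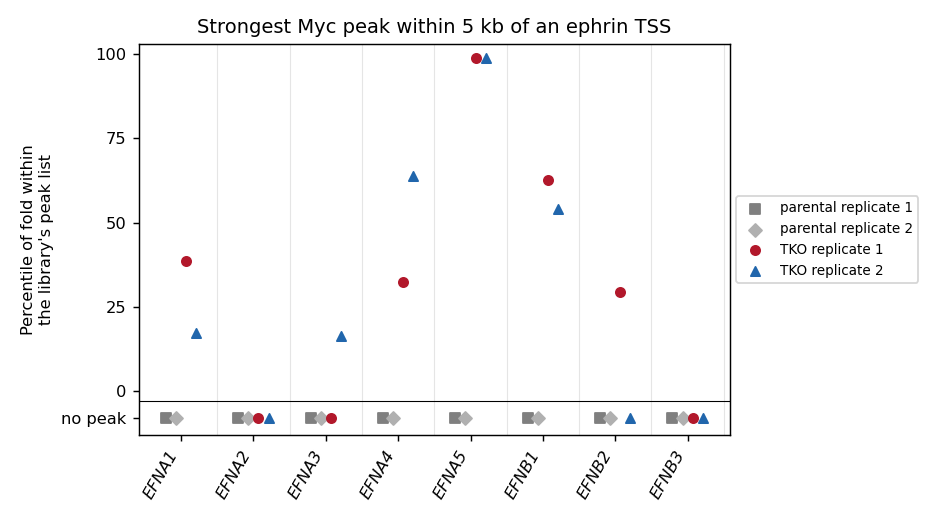
Percentile of fold within the library's own peak list (vertical axis) of the strongest peak within 5 kb of a TSS, for each ephrin gene and each of the 4 Myc libraries; points under the line mark a library with no peak. EFNA5 sits at 99.0 and 98.9 in TKO replicates 1 and 2, every other ephrin point lies at or below 63.9, and all parental points are in the lane without a peak.

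These peaks were mostly of middling strength. The family had 22 peaks within 5 kb, 9 in TKO replicate 1 and 13 in TKO replicate 2, and EFNA5 alone held 50% of them. Overlapping peaks merged into 14 sites, of which 6 were called in both TKO libraries and 8 in 1 TKO library. Over the whole genome, 13485 of 33425 sites were called in both TKO libraries and in no parental library. The ephrin share was close to that, and nothing was read from it. No ephrin site was called in all 4 libraries, so no ratio of TKO to parental reads could be formed at any of them.

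EFNA5 encodes ephrin-A5, a ligand known for repulsive axon guidance. It lies at chr5:106712595-107006638 on the minus strand and has 2 basic start sites 310 bp apart, of which the outer is that of the reference (MANE) transcript. The strongest peak lay in intergenic sequence 1965 bp upstream of the outer TSS in TKO replicate 1 and 1992 bp upstream in TKO replicate 2. Its summits were 27 bp apart. It spanned 1238 bp (chr5:107008132-107009369) in TKO replicate 1 and 1336 bp (chr5:107008327-107009662) in TKO replicate 2, wider than most peaks of those lists at percentiles 98.5 and 99.1 by width.

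Fold at this site was 20.1 in TKO replicate 1 and 18.7 in TKO replicate 2, which ranked it at 279 of 27213 peaks and 295 of 25887 peaks. The mean was 19.4 ± 1.04 (SD, n = 2). Recovered reads at the summit were 57 in TKO replicate 1 and 43 in TKO replicate 2, or 2.86 and 3.30 reads per M reads. Exact Poisson intervals at the 95% level, which cover counting error only, were 2.16 to 3.70 and 2.39 to 4.44. The intervals overlapped, so no difference between the replicates was resolved, and none was tested. Ranked by −log10 p-value instead of fold, the mean percentile was 96.8 rather than 98.9.

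Within 5 kb of the EFNA5 start sites there were 5 peaks in TKO replicate 1 and 6 in TKO replicate 2. At least 5 peaks in both TKO libraries were called at 91 of all genes, or 0.46%. The bound genes of each TKO list had a median of 1 peak. The 2 libraries shared 4 of the EFNA5 sites, and 1 in an intron was called in TKO replicate 2 alone.

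Within 5 kb, the second EFNA5 site by fold was the one over the start codon. Its summit lay 349 bp downstream of the outer TSS in TKO replicate 1 and 341 bp downstream in TKO replicate 2, only 8 bp apart. Fold there was 9.19 in TKO replicate 1, percentile 87.2, with 26 reads at the summit. In TKO replicate 2 fold was 7.40, percentile 75.7, with 22 reads. The remaining EFNA5 peaks within 5 kb were weaker by fold. By reads this did not hold throughout, since the TKO replicate 1 peak 1114 bp upstream had 29 at its summit. Between the TSS and the upstream peak, 1 shared site had its strongest summits 370 bp apart in the 2 libraries.

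**Figure D2:**
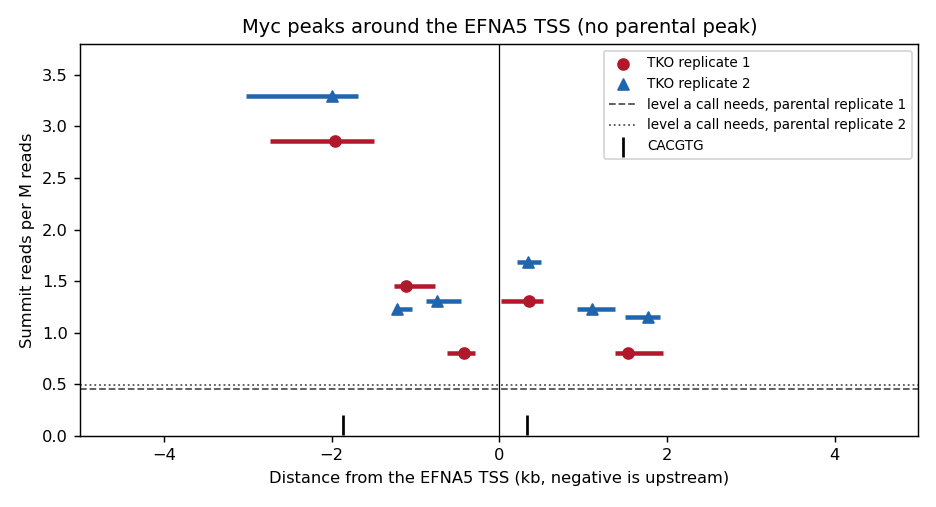
Summit reads per M reads (vertical axis) against distance from the outer EFNA5 TSS (horizontal axis, kb) for the TKO peaks. Horizontal bars span each peak and ticks mark CACGTG. Dashed and dotted lines give the level a call would have needed in parental replicates 1 and 2. That level is for the local background of the upstream summit, is not scaled to read extension, and would be higher where background was higher. The upstream peaks stand at 2.86 and 3.30, above every other peak and above both lines, and each CACGTG lies inside a peak of both TKO libraries.

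Both E-boxes within 5 kb of EFNA5 lay inside peaks of both TKO libraries. The upstream one, centred 1871 bp before the outer TSS, was 93 bp from the summit in TKO replicate 1 and 120 bp in TKO replicate 2. The one in the coding exon was 17 bp and 9 bp from the summits. Thus the site with more reads had its E-box farther from the summit than the site with fewer reads.

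The genes whose TKO-only site was most like that of EFNA5 in its pair of TKO percentiles, of 7274 genes with such a site, were KANSL2, ABCB10 and ANKRD28. For KANSL2 the percentiles were 98.3 and 97.9, and its summits lay 62 bp and 60 bp downstream of a TSS. ABCB10 had 97.8 and 98.3, and ANKRD28 had 98.5 and 97.6, with summits within 459 bp upstream of a TSS. The EFNA5 site was farther from its TSS than any of these 3.

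The absence of a parental call was set against what each parental library could have called. The EFNA5 site was chosen for being strong in TKO and not called in parental cells. Its margin, and the contrast with the other ephrin genes, partly follow from that choice and are descriptions only. At the local background found at the EFNA5 summit in TKO, 1.40 times the genome level, 12 reads in parental replicate 1 and 11 reads in parental replicate 2 would reach the lowest p-value of those lists. These are minimum numbers, since a call also depends on the width of the enriched stretch. Among called parental peaks whose background was within 25% of that multiple, the fewest reads were 13 and 11, a comparison added after the values were seen. TKO reads per M reads were 5.76 to 7.26 times that requirement over the 4 pairs of libraries. MACS2 extends reads, and the extension, read from the shortest peak in each library, was 140 and 151 bp in parental and 182 and 201 bp in TKO. Scaled to extension as well, the multiple was 4.78 to 5.06, and 4.47 to 5.00 against the fewest reads called. By p-value alone, an equal level would have escaped a parental call only where the local background exceeded 20.7 to 22.4 times the genome level. The parental background at this position is not in a list without a peak there, so this was not tested.

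For the other ephrin genes the margin was small. Scaled in the same way, the strongest TKO peak stood at 1.22 to 1.35 times the parental requirement for EFNA1, 1.09 to 1.87 times for EFNA4 and 1.38 to 1.41 times for EFNB1. It stood at 1.15 to 1.19 times for EFNB2 and 1.01 to 1.07 times for EFNA3. Against the fewest reads called, these 5 genes ranged from 1.06 to 1.92. A moderately lower parental level at these 5 genes was not detectable at this depth.

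EFNA1, EFNA3 and EFNA4, genes of ephrin-A ligands, lie in a row on chromosome 1, with EFNA3 15.1 kb and EFNA1 64.1 kb downstream of the EFNA4 TSS. EFNA4 (chr1:155036213-155042029) had 1 peak over its TSS in each TKO library. Summits lay 36 bp downstream of the nearest start site in TKO replicate 1 and 128 bp upstream in TKO replicate 2, and the peaks overlapped. Fold was 4.61, percentile 32.3, with 15 reads in TKO replicate 1 and 6.41, percentile 63.9, with 19 reads in TKO replicate 2. The mean percentile was 48.1 ± 22.4 (SD, n = 2), a wide spread. The same summits lay within 5 kb of the TSS of the readthrough gene EFNA4-EFNA3, and the peak cannot be assigned to 1 of the 2.

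EFNA1 encodes ephrin-A1, a ligand of EPHA2 that endothelial cells make in response to tumour necrosis factor. The gene lies at chr1:155100352-155107375 and was called in both TKO libraries, but at different positions. In TKO replicate 1 the only peak lay 1635 bp upstream of the TSS, with fold 4.88, percentile 38.6 and 18 reads. In TKO replicate 2 the peaks lay 745 bp upstream, with fold 3.83, and 1790 bp downstream, with fold 4.26 and percentile 17.3. No position at EFNA1 was therefore replicated. EFNA3 (chr1:155051313-155060014) had 1 weak intronic peak 4010 bp downstream of its TSS in TKO replicate 2, with fold 4.25, percentile 16.4 and 10 reads, the ephrin peak farthest from its TSS within the 5 kb limit.

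Just outside the limit lay a stronger EFNA3 site. Its summits were 6110 and 6113 bp downstream of the TSS, in an intron of EFNA3, and no parental peak overlapped it. Fold was 6.75 in TKO replicate 1, percentile 70.8, and 12.9 in TKO replicate 2, percentile 95.5. In TKO replicate 2 this was the highest fold at any ephrin gene after the EFNA5 upstream peak. In TKO replicate 1 several ephrin sites had a higher fold, among them the EFNA5 site over the start codon at 9.19. Further along, 12759 bp from the EFNA3 TSS and beyond the end of the gene, parental replicate 1 had its only peak of the row, with fold 6.11, percentile 63.3 and 28 reads. Both TKO libraries had a peak there too, with folds of 7.95 and 6.72, while parental replicate 2 had none.

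**Figure D3:**
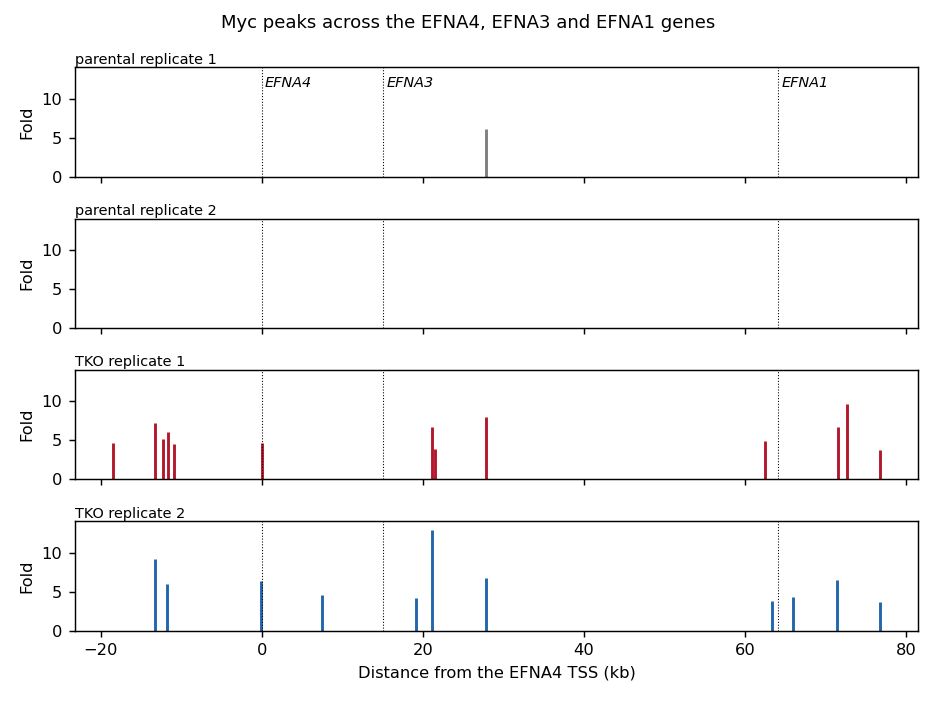
Fold of every Myc peak (vertical lines) by distance from the EFNA4 TSS (kb), 1 panel per library, with dotted lines at the start sites of EFNA4, EFNA3 and EFNA1. The 1 parental peak stands beyond EFNA3 at 27.9 kb with fold 6.11, and the tallest TKO line, at 21.2 kb in TKO replicate 2, reaches 12.9; peaks beyond the ephrin genes belong to ADAM15 on the left and to SLC50A1 and DPM3 on the right.

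Among the ephrin-B genes, EFNB1, whose loss causes craniofrontonasal syndrome, lies at chrX:68048864-68062003. A replicated peak lay just upstream, 133 bp before the TSS in TKO replicate 1 and 230 bp before it in TKO replicate 2. Fold was 6.12, percentile 62.6, with 15 reads in TKO replicate 1 and 5.83, percentile 54.1, with 11 reads in TKO replicate 2. The mean fold was 5.97 ± 0.207 (SD, n = 2), close between replicates, but the read counts were low. TKO replicate 2 had additional peaks 1070 bp upstream, over the E-box shown above, and 870 bp downstream in coding sequence.

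EFNB2 encodes ephrin-B2, a marker of arterial endothelium, and lies at chr13:107142093-107188010 on the minus strand. Its peak 370 bp upstream of the TSS was called in TKO replicate 1, with fold 4.49, percentile 29.6 and 18 reads, and not in TKO replicate 2. EFNB3, a ligand of the midline of the nervous system (chr17:7608520-7614690), and EFNA2 (chr19:1285872-1301430) had no peak within 5 kb, nor any site nearer to their own TSS than to that of another gene.

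**Figure D4:**
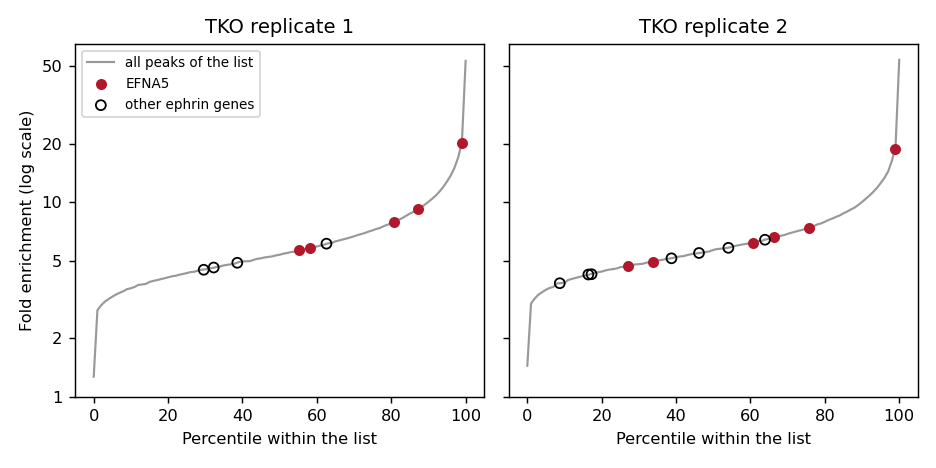
Fold enrichment (log scale) against percentile for all peaks of each TKO list (grey curve), with the peaks within 5 kb of EFNA5 in red and of the other ephrin genes as open circles. The EFNA5 upstream peak lies on the steep end of both curves at folds of 20.1 and 18.7, and the open circles lie between 3.83 and 6.41.

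E-boxes were not the rule at ephrin peaks. CACGTG lay within 50 bp of the summit in 4 of 22 peaks, at 3 of 14 sites, those of EFNA5 over the start codon, EFNA1 and EFNB1 shown above. In TKO replicate 1 it was near 2 of 9 ephrin summits, beside 8.82% of all peaks of that list and 1.49% of flanking windows 1 kb away. In TKO replicate 2 it was near 2 of 13, beside 7.58% of all peaks and 1.55% of flanks. The variant CACGCG occurred near 1 of 22 ephrin summits (EFNA1, 745 bp upstream), beside 5.95% and 5.98% of all peaks in TKO replicates 1 and 2. CACGAG occurred near 2 (EFNA5 and EFNB1), beside 5.12% and 5.02%. The AP-1 sequences TGACTCA and TGAGTCA occurred near 1 (EFNA1, 1790 bp downstream), beside 8.67% and 6.78%. The variant CATGTG, at 10.8% and 7.92% of all peaks, was near no ephrin summit, and neither was CATGCG, at 3.29% and 3.03%. The ETS sequence CCGGAAGT, at 1.16% and 1.30%, was near none either, with both strands searched throughout.

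Within 5 kb of the 8 MANE start sites there were 14 CACGTG sequences, of which 4 lay in a peak. The corresponding share over all genes was not computed, so this count was not read as low or high. EFNA5 had 2 of 2 inside a peak, EFNA1 had 1 of 2 and EFNB1 had 1 of 3. EFNA3 had the most, 6, and none of them lay in a peak of any library, although 4 stood close together between 2199 and 2303 bp downstream of its TSS. EFNB3 had 1, not in a peak, and EFNA2, EFNA4 and EFNB2 had none. E-box number alone did not order the genes by peak strength.

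Replicated ephrin sites within 5 kb of a TSS varied in how closely their summits fell. The gap between TKO summits was 8 bp at the EFNA5 start codon and 27 bp at its upstream peak. It was 97 bp at EFNB1, 188 bp at EFNA4 and 239 and 370 bp at the other EFNA5 sites. The last site merged several overlapping peaks, and its gap is between the strongest of each library. Its summits lay 425 and 1114 bp upstream of the outer TSS in TKO replicate 1 and 744 and 1224 bp upstream in TKO replicate 2. Over all 13485 sites called in both TKO libraries alone the median was 54 bp, with an interquartile range of 23 to 111 bp. The 2 strongest of these 6 sites were thus below that median and the other 4 above it.

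Beyond 5 kb, sites were assigned to the ephrin gene when its TSS was the nearest protein-coding TSS and lay within 300 kb. EFNA5 then had 10 sites, EFNB2 had 6, and EFNA1, EFNA3 and EFNB1 had 3 each, EFNA4 had 2 and EFNA2 and EFNB3 had none. None was called in all 4 libraries. EFNA5 had 1 further TKO-only site in an intron, 98356 and 98381 bp from the nearest start site, with fold 6.62 in TKO replicate 1 and 11.3 in TKO replicate 2, at percentiles 69.6 and 93.0. Parental replicate 2 had 2 intronic EFNA5 peaks, with folds of 4.11 and 5.99, of which the first overlapped a TKO replicate 1 peak and the second stood alone.

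EFNB2 had 3 TKO-only sites beyond its 3′ end, the strongest 159058 and 159105 bp from the TSS inside the noncoding gene LINC00460, with fold 8.04 in TKO replicate 1 and 6.30 in TKO replicate 2. This site held AP-1 sequences and no canonical E-box. A peak inside EFNB2, 27527 bp from the TSS with fold 4.89, was called in parental replicate 2 alone. The 4 parental peaks assigned to ephrin genes were thus all more than 5 kb from a protein-coding TSS of the basic set. The EFNA5 peak of fold 5.99 was within 5 kb of the TSS of a transcript outside that set.

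The Eph receptors were examined in the same way. None of 14 receptor genes had a peak in a parental library, beside 13.9% and 15.5% of all genes in parental replicates 1 and 2. The list is short, so nothing was read from that absence. In TKO replicate 1, 4 receptor genes had a peak and in TKO replicate 2, 6, a mean of 5 ± 1.41 (SD, n = 2). These are 28.6% and 42.9% of the list, below the 54.6% and 55.5% of all genes. EPHA2, the epithelial receptor of ephrin-A1, stood highest by mean percentile at 53.6, with fold 5.76 in TKO replicate 1 and 5.65 in TKO replicate 2. EPHA4, which binds ligands of both types, followed at 49.7, EPHB3 at 49.5 and EPHB4, the receptor of ephrin-B2 in veins, at 45.1. These means take the strongest peak of each library, which need not be the same site. For EPHB4 it lay 268 bp upstream of a TSS in TKO replicate 1 and 1552 bp downstream in TKO replicate 2. The highest percentile of any receptor peak was 63.8, for EPHA4 in TKO replicate 2, against 98.9 for the EFNA5 upstream peak in the same list. The EFNA5 peak was chosen for its strength and the receptors were not, so nothing was read from this contrast.

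Of 25 genes that process ephrins or carry their signal, 13 had a peak in TKO replicate 1 (52%, beside 54.6% of all genes) and 18 in TKO replicate 2 (72%, beside 55.5%). In parental replicate 1 the count was 1 (4%, beside 13.9%) and in parental replicate 2 it was 5 (20%, beside 15.5%). ABL1, a tyrosine kinase acting below Eph receptors, was called in all 4 libraries, at percentiles 58.8 and 18.7 in parental and 95.5 and 95.5 in TKO replicates 1 and 2. By rank of fold it stood at 1535 and 4648 in the parental lists and at 1230 and 1156 in the far longer TKO lists. Percentiles of lists so unequal in length cannot be compared between the lines, and no gain in binding was read from them. The kinase gene FYN, the adaptor gene NCK1, the GTPase gene RHOA and RGS3, a regulator of G-protein signalling that binds ephrin-B tails, were called in parental replicate 2 and in both TKO libraries. CDC42, a GTPase of the actin cytoskeleton, had percentiles of 83.0 and 78.5 in TKO and no parental peak.

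**Figure D5:**
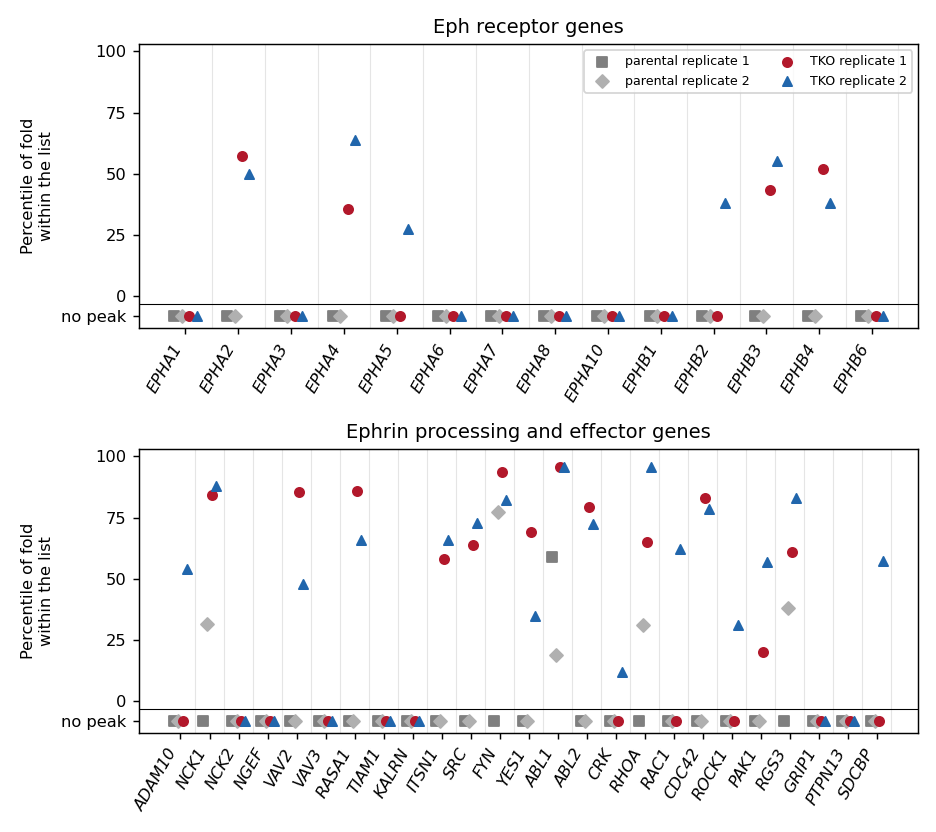
Percentile of fold of the strongest peak within 5 kb for the 14 Eph receptor genes (top) and 25 processing and effector genes (bottom), by library, with points under the line marking no peak. Receptor points reach at most 63.8 and none is parental, whereas ABL1 has a point in all 4 libraries and reaches 95.5 in both TKO replicates. The TKO lists are far longer than the parental lists, so percentiles are not comparable between the lines.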

How the data were processed

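Myc ChIP-seq was analysed in 2 parental and 2 TKO libraries. Per the labels and methods, the authors aligned single-end reads to hg19 with Novoalign 3.08.02 and called peaks per library with MACS2 2.1.1.20160309 (mfold 5 to 50) against input. The lowest −log10 q-value was 2.03 to 2.07. Duplicate handling is not given in the sources used here. Each deposited list gives fold, −log10 p-value, −log10 q-value and a score. Fold is the scaled reads at the summit over the local background used for the call, with the same constant added to both. It is therefore smaller than the plain ratio of reads to background. Fold and p-value were solved for whole summit reads (100% of peaks within 0.002 on the −log10 scale). Depth assumed 2700000000 bases. Mitochondrial peaks (11) were left out of annotation.

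Start sites came from GENCODE 44 lifted to GRCh37. Peaks overlapping by at least 1 bp formed sites. The ephrin, receptor and effector lists, tests and alternatives were chosen with earlier results of these data known. All ephrin genes were named. Receptors and effectors were named if bound in parental cells or among the 4 highest mean TKO percentiles. The 3 genes nearest EFNA5 in percentile were named, as were genes sharing a peak with an ephrin gene. Sequences were those of the 2 strongest ephrin sites within 5 kb of a TSS and of sites with an E-box within 50 bp.

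Tables and statistics used pandas 2.3.3 and scipy 1.17.1 with numpy 2.4.6 under Python 3.11.15. Sequences were read with samtools 1.23.1 and pysam 0.24.0, and plots used matplotlib 3.10.9. Steps were tested on simulated data.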

Additional observations from a re-analysis of the deposited data

How the results depend on the processing

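Of 62 values recomputed under other settings, 54 stayed within the set limits, but some of these could not move. A parental mean of 0 stays 0 under stricter cutoffs, a narrower window or with a library left out. A TKO mean does not change when a parental library is left out. With 2 TKO libraries, leaving either out always keeps the EFNA5 percentile within its limit of 1 SD. The count of unmoved values is therefore no measure of robustness. At a fold of at least 5 the mean number of ephrin genes bound in TKO was 2.5 rather than 5, and genes bound in both TKO libraries and no parental one were 2 (EFNA5 and EFNB1) rather than 4. With each list cut to its 3720 strongest peaks these were 1 and 1 (EFNA5), and the receptor mean in TKO was 0 rather than 5. With start sites of all transcripts the parental means were 0.5 for ephrins and 1 for receptors. The first was EFNA5 in parental replicate 2, through the distal intronic peak of fold 5.99 near a short transcript, so EFNA5 left the 4 genes and EFNA3 joined. With a window of 10 kb the 4 genes became 6, EFNA2 and EFNA3 joining, and with 1 kb 3, without EFNA1. Ranked by −log10 p-value, EFNA5 stood at 96.8. Leaving out a library gave 4 to 5 genes bound in all TKO libraries kept and 4 to 6 receptors, and moved no percentile of EFNA5 beyond 98.9 to 99.0. No paired analysis was possible because no ephrin site was called in all 4 libraries. For the same reason the planned ratio of TKO to parental summit reads and its alternatives gave no value.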

Other observations

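Ephrin promoters had a GC content above the median of all genes, whether or not they carried a TKO peak. EFNA1, EFNA3, EFNA4, EFNA5 and EFNB1 were nonetheless within the interquartile range of all genes. Within 500 bp of the MANE TSS, GC content ranged from 63.5% at EFNA4 to 80.7% at EFNA2, beside a median of 61.5% (interquartile range 54.3% to 67.8%) over 18922 genes. EFNA2 and EFNB3, the genes without a peak within 5 kb (EFNA2 had one within 10 kb in both TKO libraries), had 80.7% and 70.2%. Genes with no peak within 5 kb in any library had a median of 56.5%. Genes with a peak in both TKO libraries had a median of 63.3% (interquartile range 58.1% to 68.6%). EFNB2, with a peak in 1 TKO library, had 78.0%. EFNA5, at 66.6%, was the only ephrin gene with CACGTG in this window, which 18.4% of all genes held.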
